A study of Mus musculus with 2 samples.

Results

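Mirlet7b, Mirlet7d, Mirlet7e, Mirlet7g, Mirlet7i and Mir98 are 6 of the 14 annotated let-7 genes of the mouse, and each makes a mature microRNA whose sequence lies at a single place among the annotated microRNA hairpins. They were taken by gene symbol from 2202 microRNA genes and are described here in left cerebral cortex. MicroRNA sequencing had been done on total RNA, selected for RNA under 30 nucleotides, from mice of the hybrid strain B6CASTF1/J (C57BL/6J crossed with CAST/EiJ), aged 18 to 20 months. The labels hold 1 group of 2 biological replicates with no treatment, genotype or age contrast. They give the sex as female in the sample fields and as male in the free-text description. Both libraries carry the same donor identifier, and whether they came from separate animals rests on the replicate numbers alone, so the spread between them may be technical. All 6 genes were measured, and all 6 reached 2 CPM, counts scaled to a library of 1000000 sense counts, in both libraries, the level used here to call a gene expressed.

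The let-7 microRNAs silence messenger RNAs that pair with their seed, bases 2 to 8 of the mature strand, and Hmga2, Lin28 and Ras genes are textbook targets. The family is low in stem cells and rises as tissues differentiate, and it is abundant in the adult brain. Its maturation is controlled after transcription: LIN28 proteins bind the terminal loop of the let-7 precursor, in many members at a GGAG motif, and block its processing.

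The mature 5p sequences of the 6 genes follow, from the RefSeq table of build GRCm38.p6, written 5′ to 3′ with the seed in capitals. All 6 genes matched the table by symbol. They are shown because the seed is what the members share and the remaining bases are what lets a read be assigned to 1 of them.
Mirlet7g: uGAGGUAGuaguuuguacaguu
Mirlet7b: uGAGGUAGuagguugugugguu
Mirlet7i: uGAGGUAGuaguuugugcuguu
Mirlet7e: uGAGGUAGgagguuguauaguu
Mirlet7d: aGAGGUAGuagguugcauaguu
Mir98: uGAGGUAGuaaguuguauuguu
The 5p sequences of let-7a, let-7c and let-7f, each encoded by 2 hairpins, are given for comparison.
let-7a: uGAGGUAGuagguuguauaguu
let-7c: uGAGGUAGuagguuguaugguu
let-7f: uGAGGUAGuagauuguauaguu

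All 6 members carried the seed GAGGUAG, had a length of 22 bases and ended in GUU. Mirlet7d was the only one of the 6 that began with A in place of U. Positions are counted from 1 at the 5′ end, and substitutions are given from let-7a to the member. Mirlet7e differed from let-7a by U9G alone. Mirlet7b differed by A17G and A19G, Mirlet7d by U1A and U16C, Mirlet7g by G12U and U18C, and Mir98 by G11A and A19U. Mirlet7i was the farthest from let-7a among the members, with G12U, A17G, U18C and A19U. The closest pair across the 2 sets, besides Mirlet7e and let-7a, was Mirlet7b and let-7c, which differed by G17A alone, from Mirlet7b to let-7c. Within the set, Mirlet7g and Mirlet7i shared their first 16 bases and differed by A17G and A19U, from Mirlet7g to Mirlet7i.

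Each member's 5p sequence was found, on either strand, at 1 locus of the 2202 annotated hairpins, and so was each member's 3p sequence. For let-7a, let-7c and let-7f the 5p sequence was found at 2 loci each. The stretch from the 5′ end that was needed to tell a member from every other annotated hairpin was 17 bases for Mirlet7b, Mirlet7e, Mirlet7g and Mirlet7i, 11 for Mir98 and 10 for Mirlet7d. A shorter read of the first 4 members would therefore have several places. This search covered annotated hairpins and not the whole genome.

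The terminal loops of 5 members, here the hairpin bases between the 5p and 3p sequences, are shown next with GGAG in capitals where it occurs, because this is the letter pattern that LIN28 is known to bind.
Mirlet7g: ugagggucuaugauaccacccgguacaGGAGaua
Mirlet7b: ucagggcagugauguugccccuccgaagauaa
Mirlet7i: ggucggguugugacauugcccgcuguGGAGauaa
Mirlet7e: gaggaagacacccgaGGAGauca
Mirlet7d: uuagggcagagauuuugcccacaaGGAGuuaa
These loops were 23 to 34 bases long. GGAG was found in 4 of 5, and the loop of Mirlet7b held no such match. Among all RefSeq mouse hairpins with both arms annotated and a loop of 23 to 34 bases, 13 of 52 (25%) held GGAG on the hairpin strand. These 52 include the 5 members and their 4 matches, so the share is not independent of them. The match is a description of these letters and not of a bound protein.

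The 2 libraries held 5166667 and 4459993 sense counts at microRNA genes, 34.8% and 34.9% of all reads. Multimapping reads, which fit several genomic places, made up 41.8% and 46.4% of all reads, are listed apart by the authors and are not split by gene. Of the marker genes of cortical neurons, 9 of 12 were expressed, summing to 79277 CPM (replicate 1) and 66141 CPM (replicate 2). The lower sum of replicate 2 came mainly from Mir132 (42450 and 33684 CPM) and Mir128-1 (20358 and 14077 CPM). With the TMM scaling explained below, these 2 were the only expressed neuron genes lower in replicate 2. The other 7 had log2 ratios above 0, up to 0.81 for Mir137 and 1.01 for Mir9-3. Several of the neuron genes and of the muscle genes have near-identical copies, so their numbers are uncertain. The liver gene Mir122 stood at 54.6 and 60.1 CPM, and of 5 muscle genes Mir206 was the 1 expressed while Mir1a-1, Mir1a-2, Mir133a-1 and Mir133a-2 were at 0 sense counts. At these depths 0 counts would still allow 0.581 CPM (replicate 1) or 0.673 CPM (replicate 2). This limit does not cover multimapping reads, so it does not bound the level of a muscle gene with near-identical copies. Levels are given in CPM, with the mean ± SD of the 2 libraries (n = 2). All members have mature strands of equal length, so CPM was compared between them without a length term. Whether the library preparation captured each sequence equally well was not tested. Differences between members are therefore differences in counts and may not equal those in RNA amount. A gene's count holds the reads of both hairpin arms.

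By sense counts Mirlet7g was the highest of the 6, and Mir98 the lowest. Mirlet7g (ENSMUSG00000065440.1) lies on chromosome 9 at 106178840 to 106178927 (mm10), in an intron of Wdr82, a subunit of the SET1 histone methyltransferase complex. It had 414332 counts in replicate 1 and 589863 in replicate 2, which is 80193 and 132256 CPM, or 106225 ± 36814 CPM. By sense counts it stood at rank 2 of all microRNA genes in replicate 1 and at rank 1 in replicate 2. Its level thus differed more between the libraries, in CPM, than that of any other member. Ranks here and below leave out multimapping reads, so genes with near-identical copies may rank too low.

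Mirlet7b (ENSMUSG00000065564.1) lies on chromosome 15 at 85707319 to 85707403, in an exon of Lncppara, a non-coding gene. Its 346654 and 319817 counts gave 67094 and 71708 CPM, or 69401 ± 3262 CPM, at rank 3 in both libraries. It was the steadiest of the 6, with a coefficient of variation of 4.70%. Mirlet7i (ENSMUSG00000065406.3), on chromosome 10 at 122985640 to 122985724 in an exon of the transcribed pseudogene D630033A02Rik, had 215479 and 262421 counts. These were 41706 and 58839 CPM, or 50272 ± 12115 CPM, at ranks 6 and 4. Replicate 2 was the higher library for both genes.

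Mirlet7e (ENSMUSG00000105758.1) lies on chromosome 17 at 17830352 to 17830444, in an intron of the sperm protein gene Spaca6, none of whose 16 annotated transcripts has an exon there. It had 140549 and 146457 counts, 27203 and 32838 CPM, or 30020 ± 3984 CPM, and ranked 9 and 8. Mirlet7d (ENSMUSG00000065453.1), on chromosome 13 at 48536012 to 48536114 in the exon of the long non-coding gene 6720427I07Rik, had 93742 and 102246 counts. Its level was 18144 and 22925 CPM, or 20534 ± 3381 CPM, at ranks 14 and 10. The 2 genes kept nearly the same distance from each other, with Mirlet7e 1.499 times Mirlet7d in replicate 1 and 1.43 times in replicate 2.

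Mir98 (ENSMUSG00000065536.2) lies on chromosome X at 151913214 to 151913321, in an intron of Huwe1, which encodes a ubiquitin ligase. Its 13702 and 22353 counts gave 2652 and 5012 CPM, or 3832 ± 1669 CPM, at ranks 60 and 42. Mirlet7g exceeded it 30.2 times in replicate 1 and 26.4 times in replicate 2. Although the lowest of the 6, Mir98 was well above the limit of a count of 0, and its coefficient of variation of 43.5% was the highest among the members. The other 4 lay between 13.3% for Mirlet7e and 34.7% for Mirlet7g.

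**Figure D1:**
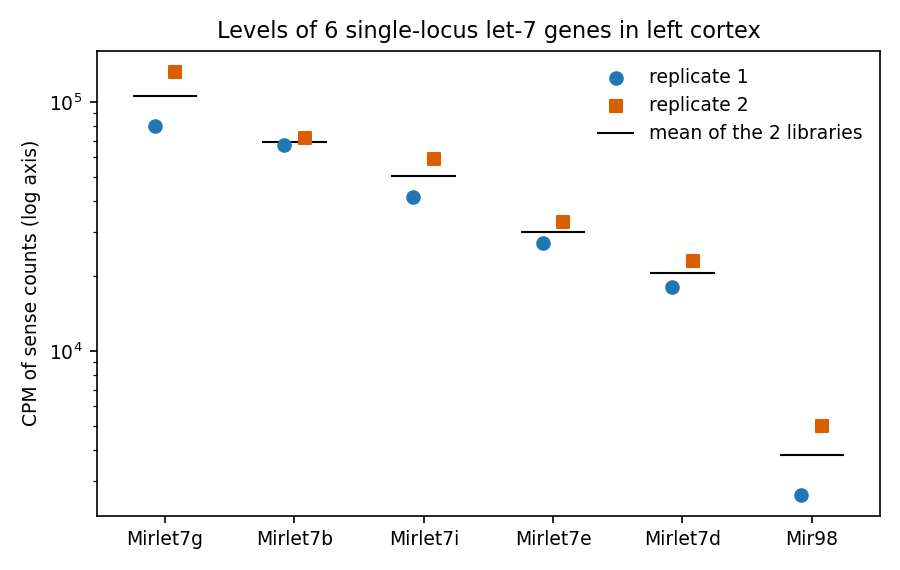
CPM of sense counts, on a log axis, for the 6 single-locus let-7 genes in left cortex; circles are replicate 1, squares replicate 2 and lines their mean. Means run from 106225 CPM for Mirlet7g to 3832 CPM for Mir98, and replicate 2 lies above replicate 1 for each of the 6.

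The order Mirlet7g, Mirlet7b, Mirlet7i, Mirlet7e, Mirlet7d, Mir98 was the same in both libraries, and the ranges of neighbouring genes did not overlap. The distance between neighbours was not equally steady. Mirlet7g was 1.20 times Mirlet7b in replicate 1 and 1.84 times in replicate 2, a mean log2 difference of 0.57 ± 0.44. Mirlet7b was 1.61 times Mirlet7i in replicate 1 and 1.22 times in replicate 2 (0.49 ± 0.28). For the other neighbours the mean log2 difference was 0.73 ± 0.16 for Mirlet7i over Mirlet7e, 0.55 ± 0.05 for Mirlet7e over Mirlet7d and 2.48 ± 0.41 for Mirlet7d over Mir98. With 2 libraries these differences have no test. The first is the 1 whose mean is closest to its SD.

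Added up, the 6 genes took 28.0% ± 6.12 of sense counts. Replicate 1 gave 23.7% (Clopper-Pearson 95% interval 23.66% to 23.74%) and replicate 2 gave 32.4% (32.31% to 32.40%). Such intervals hold counting error alone and treat each read as an independent draw. Reads carry no recorded molecular identifier, so copies of 1 molecule cannot be told apart and the intervals may be too narrow. The intervals of the 2 libraries lay far apart. Without Mirlet7g the share was 15.7% and 19.1%, so the other 5 members also held more of replicate 2. The 6 genes made up 97.9% and 98.0% of the sense counts of all 14 let-7 genes. Multimapping reads are not in these counts, and the 5p strands of let-7a, let-7c and let-7f each have 2 loci. This share therefore does not measure how much of the let-7 RNA the 6 genes make.

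As parts of their own sum, which no library scaling can change, Mirlet7g took 33.8% in replicate 1 and 40.9% in replicate 2, and Mirlet7b took 28.3% and 22.2%. Mirlet7i took 17.6% and 18.2%, Mirlet7e 11.5% and 10.1%, Mirlet7d 7.66% and 7.08%, and Mir98 1.12% and 1.55%. The makeup of the 2 libraries differed mainly in Mirlet7g, by 7.04 percentage points (replicate 2 minus replicate 1), and in Mirlet7b, by -6.15 points. The other 4 differed by -1.33 points (Mirlet7e) to 0.586 points (Mirlet7i). The counting intervals of the 2 libraries did not overlap for any of the 6.

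**Figure D2:**
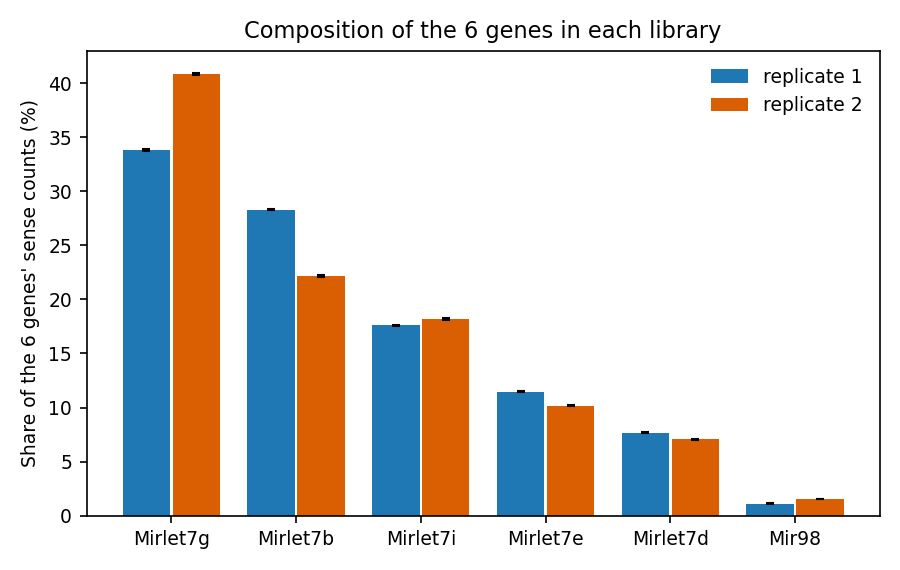
Share of the 6 genes' summed sense counts (percent) held by each gene, in replicate 1 and replicate 2; error bars are 95% exact binomial intervals. Mirlet7g holds 33.8% and 40.9% and Mirlet7b 28.3% and 22.2%, while Mirlet7i holds 17.6% and 18.2%.

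Of the 6 genes, 4 lie within 10 kb of another microRNA gene on the same strand, and Mirlet7g and Mirlet7i have no such neighbour. Mirlet7b follows Mirlet7c-2 after 621 bases. Mirlet7c-2 stood at 1211 and 1457 CPM, so that Mirlet7b was 55.4 and 49.2 times higher. Mirlet7d lies beyond Mirlet7a-1 and Mirlet7f-1, with gaps of 2064 and 1714 bases. Mirlet7a-1 reached 282.0 and 408.7 CPM and Mirlet7f-1 141.1 and 312.6 CPM, which Mirlet7d exceeded 64.3 and 56.1 times and 129 and 73.3 times. These partners make 5p strands that are each encoded at 2 loci, and their reads with several places are not in these counts, so the ratios are uncertain.

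Mir98 lies 785 bases beyond Mirlet7f-2, whose 5p strand also has 2 loci. Mirlet7f-2 had 3001 and 3772 CPM, above Mir98 in replicate 1 and below it in replicate 2. Mirlet7e sits in a compact cluster, 94 bases after Mir99b and 367 bases before Mir125a. Mir99b, of the miR-99 and miR-100 family, had 11851 and 6487 CPM, and Mir125a, the mammalian relative of worm lin-4, had 28207 and 8601 CPM. Mirlet7e was thus 2.30 and 5.06 times Mir99b, and 0.964 and 3.82 times Mir125a. In this cluster the let-7 gene was higher in replicate 2 while both partners were higher in replicate 1.

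**Figure D3:**
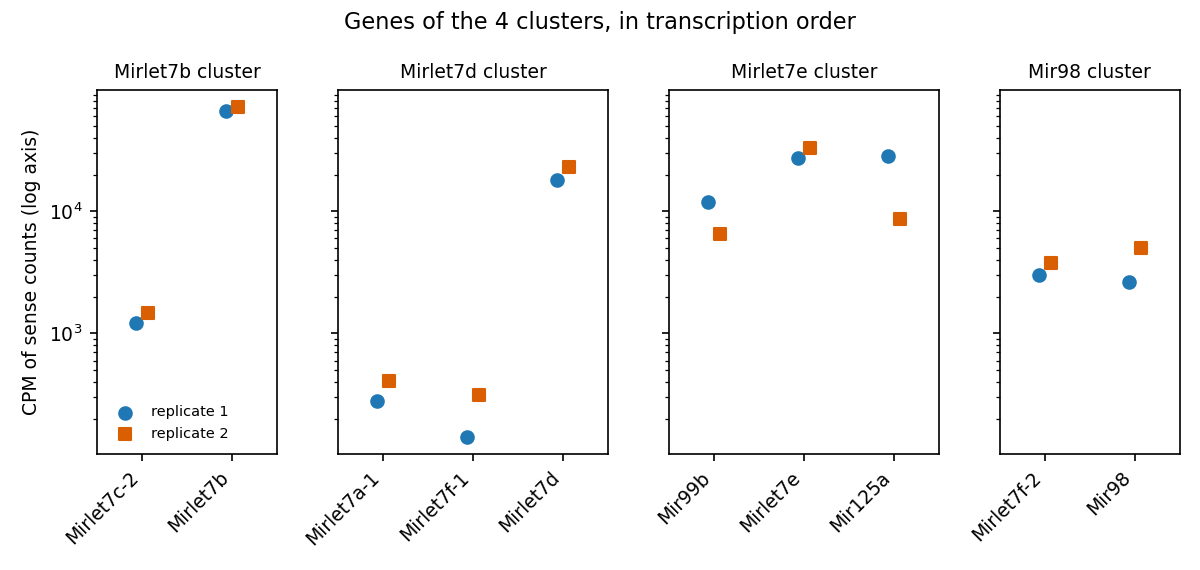
CPM of sense counts, on a log axis, for the genes of the 4 clusters that hold a single-locus let-7 gene, in the order of transcription; circles are replicate 1 and squares replicate 2. Mirlet7b and Mirlet7d stand far above their let-7 neighbours, and in the Mirlet7e cluster Mir99b and Mir125a are lower in replicate 2 while Mirlet7e is higher.

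The ratio of replicate 2 to replicate 1 compares 2 libraries and not 2 conditions. It was scaled by TMM (trimmed mean of M-values), a scaling in edgeR that lines up most genes, and on this scale log2 ratios lie 0.19 above those of plain CPM. The log2 ratio was 1.11 for Mir98, 0.91 for Mirlet7g, 0.68 for Mirlet7i, 0.53 for Mirlet7d, 0.46 for Mirlet7e and 0.28 for Mirlet7b. Replicate 2 was the higher for all 6, also on library totals (0.10 for Mirlet7b to 0.92 for Mir98) and with DESeq2 size factors (0.27 to 1.09). Among all 409 expressed genes 209 (51.1%) were higher in replicate 2, and among the 96 genes with a mean of 1000 CPM or more, the range all members fall in, 64 (66.7%) were. On library totals these were 172 of 409 (42.1%) and 55 of 96 (57.3%).

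Past 1.5-fold, the fold used here to call a gene, were 3 of the 6 members, all higher in replicate 2: Mir98 at 2.15-fold (95% counting interval 2.11 to 2.20), Mirlet7g at 1.88-fold (1.87 to 1.89) and Mirlet7i at 1.61-fold (1.60 to 1.62). On library totals 2 of 6 were, as Mirlet7i stood at 1.41-fold. Of all expressed genes 47.2% were past 1.5-fold in either direction, with 21.3% (87 genes) in the direction of replicate 2 and 25.9% (106 genes) in that of replicate 1. On library totals the split was 62 genes against 132. Among genes of 1000 CPM or more 46.9% were past 1.5-fold with 26.0% in the direction of replicate 2 and 20.8% in that of replicate 1. The 3 of 6 members stand near the share of all genes called in either direction and above the shares called towards replicate 2, a difference that was not tested. In the size of the ratio, 114 of the 409 expressed genes differed more than Mirlet7g, 76 more than Mir98 and 307 more than Mirlet7b.

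**Figure D4:**
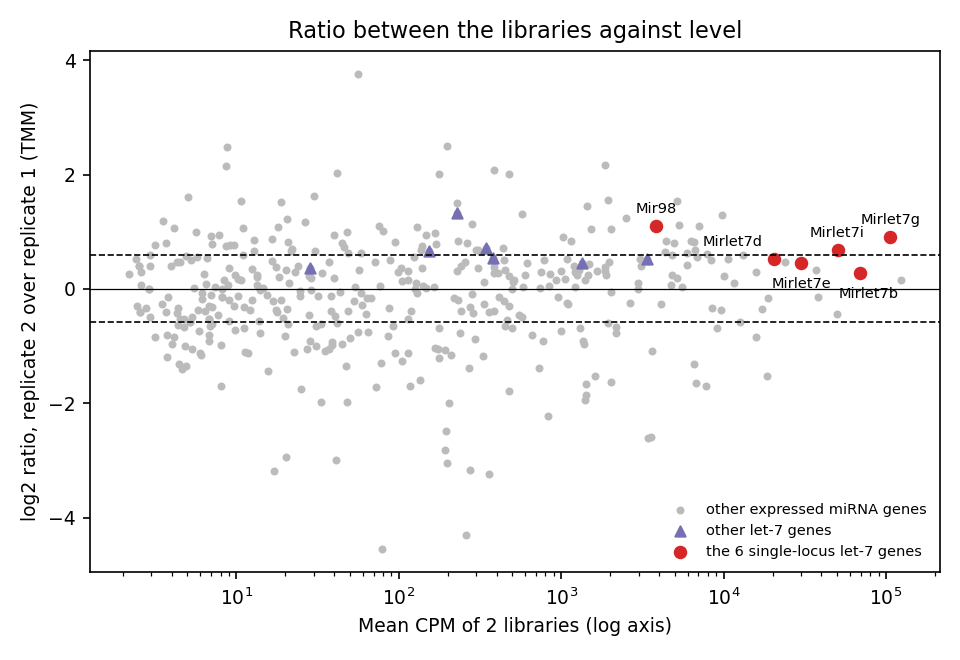
TMM-scaled log2 ratio of replicate 2 over replicate 1 against the mean CPM (log axis) of the 409 expressed microRNA genes; red circles are the 6 single-locus let-7 genes, triangles other let-7 genes, grey points all other genes and dashed lines 1.5-fold. The 6 genes lie between 0.28 and 1.11, above 0, among grey points that spread to both sides.

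The other let-7 genes lay on the same side. Of these 8 genes, 7 were expressed and all 7 had a higher level in replicate 2, with Mirlet7f-1 highest (log2 ratio 1.34) and Mir7j, the gene of let-7j, lowest (0.36). The median log2 ratio was 0.61 over the 6 members, 0.60 over the 6 genes of let-7a, let-7c and let-7f, and 0.02 over all expressed genes. The counts of the let-7a, let-7c and let-7f genes leave out reads with several places, so their ratios cover the remaining reads only. Among the 6 genes of miR-99, miR-100 and miR-125, which share clusters with let-7 genes, 3 were higher in each library. Mir125a (-1.53) and Mir99b (-0.68) were the 2 past 1.5-fold, both higher in replicate 1. Mir125b-2 (0.36), Mir99a (0.29) and Mir100 (0.25) were higher in replicate 2, and Mir125b-1 had a log2 ratio of -0.15. Mir125b-1 and Mir125b-2 are 2 genes of miR-125b, and reads that fit both are likewise left out of their counts. The differences between these sets were not tested.

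**Figure D5:**
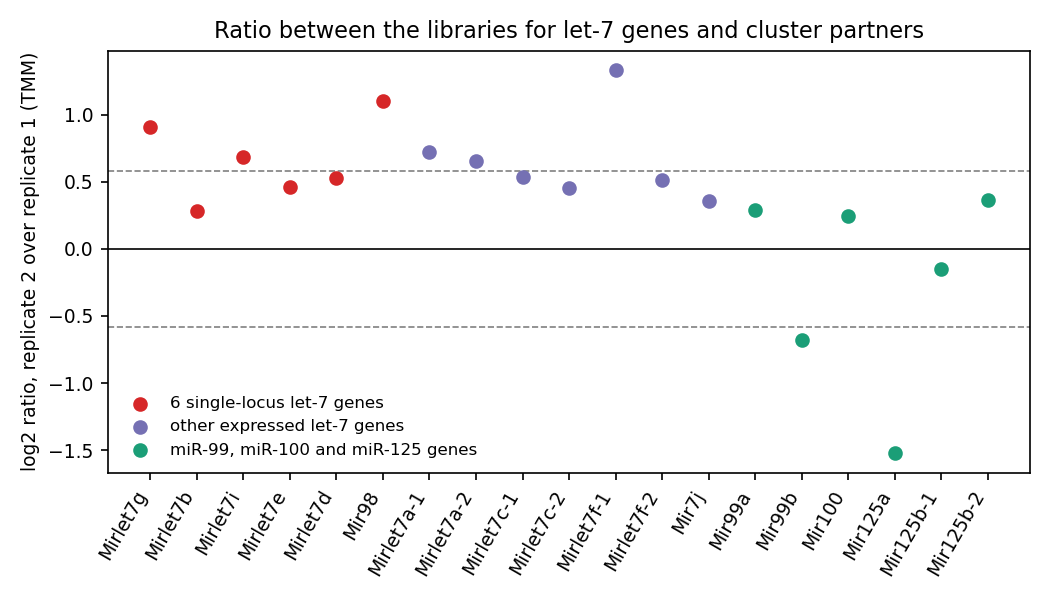
TMM-scaled log2 ratio of replicate 2 over replicate 1 for the 6 single-locus let-7 genes, 7 other expressed let-7 genes and the 6 genes of miR-99, miR-100 and miR-125; dashed lines mark 1.5-fold. All 13 let-7 genes lie above 0, while Mir99b and Mir125a lie below the lower dashed line.

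Markers of other cell types also differed between the libraries. All 6 epithelial genes were expressed and were higher in replicate 1, with a sum of 2118 CPM there and 181.2 CPM in replicate 2. Both mural cell genes summed to 5077 and 9896 CPM, and the endothelial gene Mir126a stood at 21257 and 10411 CPM. The 4 leukocyte genes summed to 1381 and 1331 CPM, most of it Mir150 (1286 and 1154 CPM). Their median log2 ratio was 1.02, as Mir142 (52.3 and 98.7 CPM), Mir155 (29.6 and 50.0 CPM) and Mir223 (13.4 and 27.6 CPM) were past 1.5-fold towards replicate 2. Both red cell genes summed to 79.2 and 52.7 CPM, and the 4 genes of choroid plexus and ciliated cells to 723.9 and 1111 CPM. The last list was split. Mir34c (163 and 604 CPM, log2 ratio 2.08) and Mir34b (1.54) were past 1.5-fold towards replicate 2. Mir204 (533 and 467 CPM, log2 ratio -0.001) and Mir449a (0.297) were not past 1.5-fold. All genes in the lists from epithelium to ciliated cells were expressed and none was at 0. Of the 3 oligodendrocyte genes 2 were expressed, with a sum of 3952 and 3864 CPM. The endocrine gene Mir375 stood at 310.5 and 256.5 CPM. The part of these differences in the let-7 ratios was not tested, and in bulk tissue fewer cells of a type and less RNA per cell cannot be told apart.

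The strand of the counts bore on 1 member. Mirlet7e overlaps Gm25927, an annotated microRNA gene on the opposite strand, and in the authors' column without strand it had 0 counts in both libraries. The opposite-strand counts of Gm25927 were 140549 and 146457, equal to the sense counts of Mirlet7e, and Gm25927 had no sense count. Reads called ambiguous in that column numbered 405700 and 328968, of which the sense counts of Mirlet7e equal 34.6% and 44.5%. For Mirlet7d, Mirlet7g, Mirlet7i and Mir98 both columns held the same counts, and Mirlet7b differed by its 17 and 3 opposite-strand counts.

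For each member the gene outside the let-7 family with the nearest level over both libraries was found by Euclidean distance in log2 CPM. It was Mir139 for Mirlet7g (distance 0.66), Mir127 for Mirlet7b (0.88), Mir744 for Mirlet7i (0.64) and for Mirlet7e (0.45), Mir23b for Mirlet7d (0.30) and Mir361 for Mir98 (0.38). The nearest log2 ratio among 88 genes of 1000 CPM or more was that of Mir872 for Mirlet7g (0.91), Mir99a for Mirlet7b (0.29), Mir674 for Mirlet7i (0.69), Mir181d for Mirlet7e (0.44), Mir93 for Mirlet7d (0.53) and Mir143 for Mir98 (1.10). By the distance in level, Mir23b was the closest of these genes to a let-7 member, followed by Mir361 and Mir744. This likeness rests on 2 libraries.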

How the data were processed

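The authors deposited, for each of the 2 libraries, a table of read counts per microRNA gene, not normalized, on mouse build mm10 with GENCODE M21, per the deposited descriptions. The aligner and counter: not given in the sources used here. Of 3 count columns, 1 ignores strand and 2 are stranded. The stranded column taken as sense was set by its position, and it held the larger total in both libraries. The 4 lines that name no gene (65.2% and 65.1% of reads) were left out of library sizes.

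Gene identifiers were matched to GENCODE M21, and let-7j and let-7k to the symbols Mir7j and Mir7k. CPM used the sense total. TMM factors came from edgeR 4.0.16 over the 409 expressed genes, and size factors from DESeq2 1.42.0. Ratios add 0.5 to each count. Intervals are 95% Clopper-Pearson. The terminal loop of 1 member is not reported here. The calculation was tested on simulated data. No p-value is given, as there is 1 group. Variants carried by the CAST parent may lower read placement, which was not tested.

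The members and lists were chosen with earlier results of these data known. Named were all members, the other let-7 genes, microRNA genes within 10 kb, cluster partners, fixed markers and the nearest genes in level and ratio.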

Additional observations from a re-analysis of the deposited data

Results flagged for a closer look

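Some counts lay in columns and lines that the comparisons do not use, and passed the limit of 3 counts. Gm25927, opposite Mirlet7e, held 140549 counts on the opposite strand in replicate 1 and 146457 in replicate 2. These equal the sense counts of Mirlet7e, which Gm25927 spans in full, so they are the same reads and no further signal. Mirlet7b had 17 opposite-strand counts in replicate 1 and 3 in replicate 2, and the latter is not above the limit. Multimapping reads, which no gene row holds, came to 6203588 (replicate 1) and 5928954 (replicate 2), or 1.20 and 1.33 times the sense counts.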

How the results depend on the processing

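With the lines that name no gene in the denominator, levels were 37025 CPM for Mirlet7g, 24184 for Mirlet7b, 17521 for Mirlet7i, 10462 for Mirlet7e, 7156 for Mirlet7d and 1336 for Mir98, and the 6 genes held 9.77% of reads, as the larger denominator makes every level lower. They held 97.9% of the sense counts of all let-7 genes, in which multimapping reads are left out. In the column without strand Mirlet7e had 0 CPM and 0% of the members' counts, Mirlet7b stood at 75115 CPM, Mirlet7d held 8.27% and Mirlet7i 20.1% of the members' counts. The counts of the members other than Mirlet7e hardly changed. Their CPM was higher because the column's totals were smaller (4761184 and 4131123), and their shares because Mirlet7e was at 0. The log2 ratio kept its sign for all 6 members under each scaling run. On library totals it was 0.10 for Mirlet7b, 0.34 for Mirlet7d, 0.27 for Mirlet7e, 0.72 for Mirlet7g, 0.50 for Mirlet7i and 0.92 for Mir98. With DESeq2 size factors it was 0.27 for Mirlet7b, 0.51 for Mirlet7d, 0.44 for Mirlet7e, 0.89 for Mirlet7g and 0.67 for Mirlet7i. With TMM over all genes with a count it was 0.23 for Mirlet7b, 0.47 for Mirlet7d, 0.40 for Mirlet7e, 0.85 for Mirlet7g, 0.63 for Mirlet7i and 1.05 for Mir98. In the column without strand it was 0.26 for Mirlet7b, 0.50 for Mirlet7d, 0.88 for Mirlet7g and 0.66 for Mirlet7i, and none could be had for Mirlet7e. Without a filter on low counts 466 of 771 genes were past 1.5-fold, and 95 of 409 were past 2-fold. Single libraries gave levels within 1 SD of the mean by construction, and a ratio cannot be had from 1 library. No paired analysis was possible because there is 1 group. Counting error is small at these depths if reads are independent draws, which was not tested, and the number of libraries limits the precision.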

Other observations

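Beyond the 6 single-locus genes and the genes of let-7a, let-7c and let-7f, 2 further genes of the RefSeq table carry the seed GAGGUAG and had few or no counts in this cortex. Mir7k, the gene of let-7k, had 3 counts in each library. Mir1961 had 0 counts in both libraries, which still allows 0.581 CPM (replicate 1) or 0.673 CPM (replicate 2). Mir202, whose 3p strand resembles let-7 in its seed, had 6 and 3 counts. Mir7j, the gene of let-7j, was higher than these, with 139 and 135 counts (26.9 and 30.3 CPM).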
